A study of Mus musculus with 23 samples.

Results

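The serotonin receptor transcripts described here come from 10 genes, Htr1a, Htr1b, Htr1d, Htr2a, Htr2c, Htr3a, Htr4, Htr5a, Htr6 and Htr7, picked by gene name from the scanner files of one-colour microarrays. They gave 11 of the 31395 rows of the deposited table of log2 values, because Htr6 has 2 rows. The arrays carry 14 probes for these genes, of which 13 passed the filter on dim probes. The probe that failed is a second probe of Htr4, which was not well above background on any array. Of the 11 rows, 10 rest on 1 probe and the Htr2c row averages 3 probes. Females of the C57BL/6 strain were 5 weeks old at the start. For 8 weeks they were given either standard chow (SC mice) or a free choice of standard chow and a chocolate mixture (CM mice). A test battery of 11 days followed. In its test of limited access to the chocolate mixture, SC mice were offered that mixture as well. The free choice of CM mice was suspended during part of the battery and restored before the mice were killed. RNA was taken from the frontal cortex (FC), the striatum (ST) and a region abbreviated HT, named hypothalamus in the study and thalamic in the sample labels. SC mice L52, L54, L56 and L58 each gave 1 array per region, and so did CM mice O54, O56 and O58. CM mouse O52 gave arrays of ST and HT only, which makes 23 arrays in 6 groups.

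Receptor values and differences below are on the scale of normalized log2 intensity, on which a step of 1 is a doubling, unless another is named. Summed marker signals are linear. Between 36432 and 42261 of the 62976 spots of an array were well above background by the scanner software's own flag, with 36432 to 38472 in SC FC and 41481 to 42261 in CM FC. The number of arrays limits the precision. Differences were estimated with limma in 1 fit of the 6 group means. That fit gives arrays different weights, so that a fitted difference is not the plain difference of the group means. A region difference was called at an adjusted p under 0.05 and at least 1.5-fold. The arrays lay on 3 slides, and diet and region were not spread evenly over them. All CM ST arrays lay on slide 1, all CM HT arrays on slide 2 and all CM FC arrays on slide 3. Among SC arrays, slide 1 held FC of L54, L56 and L58 and ST of L52. Slide 2 held FC of L52, ST of L54 and L56 and HT of L58, and slide 3 held ST of L58 and HT of L52, L54 and L56. Each difference was therefore also fitted with the slide as a fixed term.

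Serotonin reaches the forebrain through axons of the raphe nuclei and acts on receptors that differ in what they couple to. The Htr1 and Htr5 receptors act through inhibitory G proteins, the Htr2 receptors through Gq and phospholipase C, and Htr4, Htr6 and Htr7 through Gs and adenylyl cyclase, while Htr3a forms a cation channel. In the hypothalamus, Htr2c and Htr1b are known for restraining food intake, and serotonin receptors of the striatum and cortex take part in reward and the control of action.

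The dissections were first set against marker genes. In SC mice, all 9 rows of the striatum list (8 genes, most abundant Penk) were higher in ST than in FC. The summed signal of that list in SC ST was 434569 in L52, 291805 in L54, 447282 in L56 and 531077 in L58. In SC FC it was 22515, 86971, 102941 and 92745 in the same order, and in CM FC it was 21874 in O54, 26210 in O56 and 99597 in O58. The FC arrays thus differed among themselves, with SC L52, CM O54 and CM O56 low and the other 4 higher. Of the 7 rows of the cortex list (most abundant Slc17a7), 4 were lower in ST than in FC, and 6 were lower in HT than in FC. The summed cortex signal in SC ST was 1993 in L52, 9712 in L54, 1837 in L56 and 7773 in L58, against 8492 to 16075 in SC FC. L54 and L58 thus carried more cortex signal in ST than the other SC mice. In HT against FC, 8 of the 10 hypothalamus rows (most abundant Hcrt) and all 12 thalamus rows (8 genes, most abundant Ramp3) were higher, so that HT arrays held markers of both. The summed thalamus signal in SC HT was 86426 in L52, 95780 in L54, 78042 in L56 and 33083 in L58, and the summed hypothalamus signal there was 170266, 25588, 228059 and 310035. SC ST of L52 stood apart from the other SC ST arrays, with a summed hypothalamus signal of 101429 against 1982, 4437 and 3646 in L54, L56 and L58. The summed thalamus signal in SC ST was also higher in L52 (27364) and L56 (20244) than in L54 (10978) and L58 (9230). CM ST of O58 stood apart in the choroid plexus list, with 333929 against 15382, 5271 and 19064 in O52, O54 and O56, most of it from Ttr.

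In SC mice 8 of the 11 receptor rows, from 8 genes, were called in at least 1 of the 3 region contrasts, and 7 of them were called in the same contrast with the slide as a fixed term. The matching shares of all rows are not given, so these counts do not set the receptors apart. Between ST and FC, 2 rows were higher in ST (Htr1b and Htr1d) and 3 lower (Htr2a, Htr3a and Htr5a), where 5.15% of all rows were higher and 4.18% lower. Between HT and FC, 2 rows were higher in HT (Htr2c and Htr7) and 3 lower (Htr2a, Htr3a and the RefSeq row of Htr6), where 12.7% of all rows were higher and 10.3% lower. Between HT and ST, 2 rows were higher in HT (Htr2c and Htr7) and 4 lower (Htr1b, Htr1d, Htr2a and the RefSeq row of Htr6), where 5.50% of all rows were higher and 6.35% lower. The median absolute log2 difference of the 11 rows was 0.89 between ST and FC, against 0.22 over all rows. It was 0.70 against 0.32 between HT and FC, and 0.70 against 0.22 between HT and ST. With the slide as a fixed term, 6 receptor rows were called between ST and FC, where 7.51% of all rows were called in either direction, and 4 of the 5 were among them. Between HT and FC it was 4 rows, beside 12.9% of all rows, and between HT and ST it was 4 rows, beside 11.2%. All 4 were called in the fit without the slide in each case. These are whole-tissue samples, in which fewer cells of a type and less RNA per cell cannot be told apart.

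**Figure D1:**
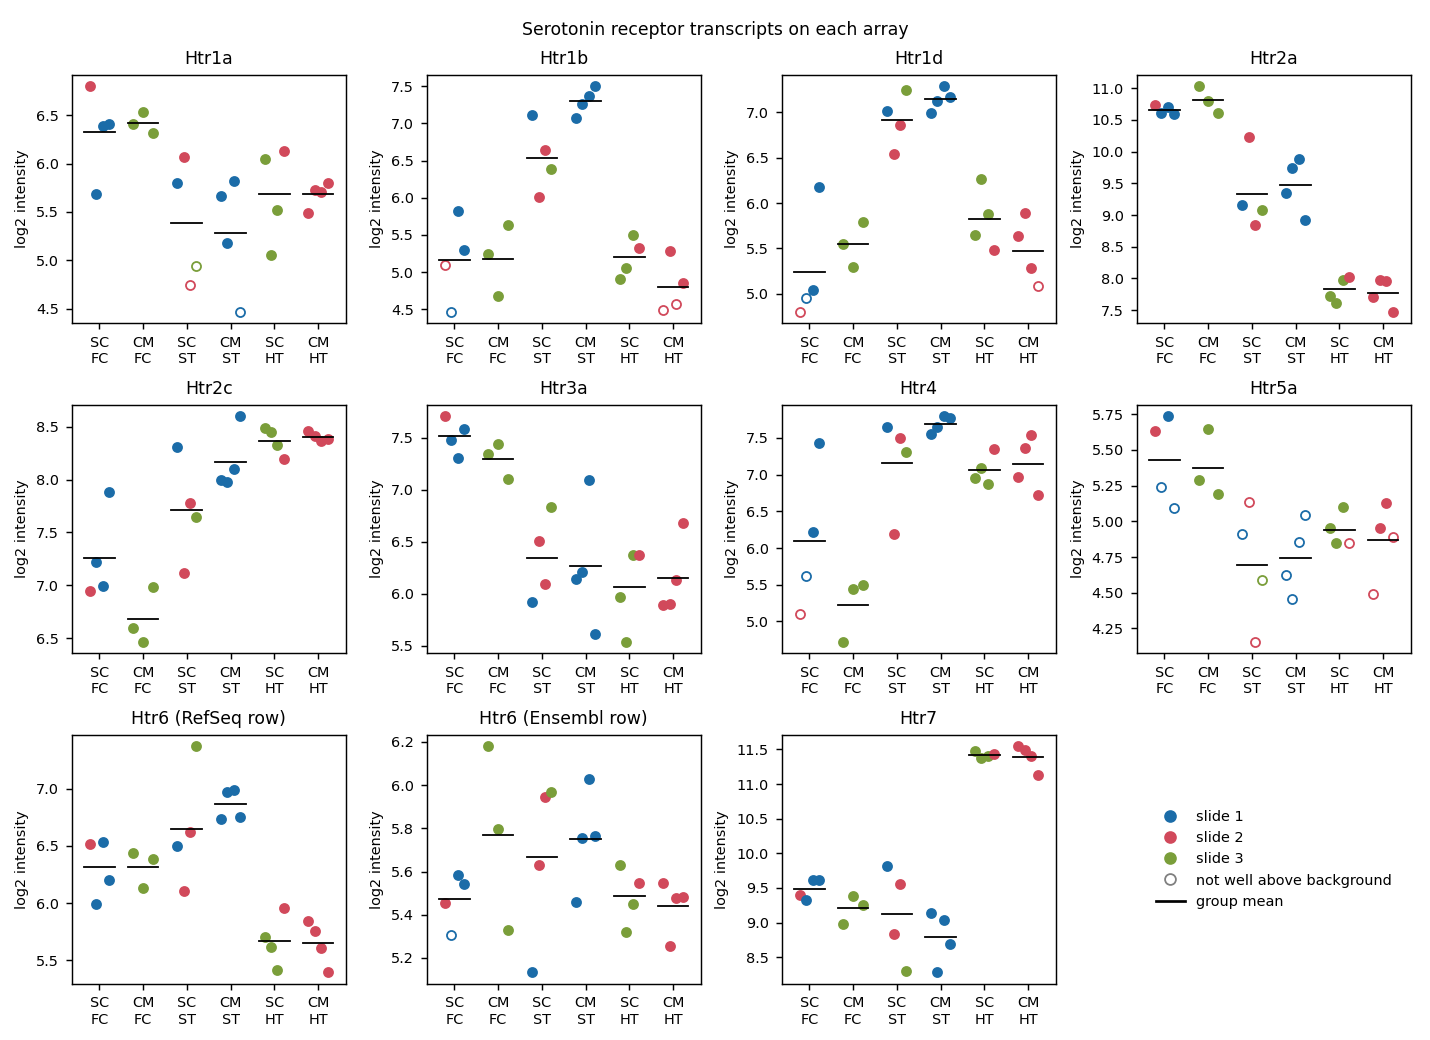
Normalized log2 intensity (vertical axis) of each receptor row on every array, by region and diet, with 1 point per mouse coloured by slide, open circles where the probe was not well above background and a bar at each group mean. Htr2a falls from FC through ST to HT with no overlap in SC mice, and the 8 HT arrays of Htr7 lie between 11.13 and 11.55, above all arrays of the other regions.

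Htr1b and Htr1d inhibit transmitter release from axon terminals, and Htr1b is a known receptor of striatal output neurons. The single Htr1d probe lies at chr4:135999620-135999679 and that of Htr1b at chr9:81525015-81525074 (mm9). In SC mice L52, L54, L56 and L58, in that order, Htr1d was 4.80, 4.96, 5.04 and 6.18 in FC. It was 7.02, 6.54, 6.86 and 7.25 in ST, and 5.64, 6.27, 5.88 and 5.49 in HT. ST was high in all 4 mice and overlapped neither FC nor HT, while FC and HT overlapped. The Htr1d probe was not well above background in FC of L52 and L54, which leaves 2 of 4 arrays there that measured it. The sizes of its differences from FC are thus uncertain. Htr1d was higher in ST than in FC by 1.52 (SE 0.32, 2.87-fold, adjusted p = 0.0046, higher in 4 of 4 mice) and 1.82 with the slide as a fixed term (adjusted p = 0.00177). Within slide 1 (1 ST array against 3 FC) the difference was 1.62, and within slide 2 (2 against 1) it was 1.90. No left-out array ended that call. Against ST, HT was lower, at -0.98 (SE 0.29, 1.97-fold, adjusted p = 0.0203), with -1.26 under the slide term (adjusted p = 0.0432), -1.22 within slide 2 and -1.32 within slide 3. This call was lost without ST of L52 (-0.91, adjusted p = 0.056) and without ST of L56 (-0.83, adjusted p = 0.079). It was also lost on the scanner's processed signal, at -1.0 (adjusted p = 0.0819). The difference of HT and FC, 0.54 (95% interval -0.03 to 1.11), did not pass (adjusted p = 0.117), and was called without FC of L58 (0.87, adjusted p = 0.0075) and on the processed signal (1.20, adjusted p = 0.0132).

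Htr1b was likewise highest in ST. In the same order of mice it was 5.10, 4.46, 5.82 and 5.30 in FC, with L52 and L54 not well above background. The sizes of its differences from FC are therefore uncertain. In ST it was 7.12, 6.01, 6.65 and 6.38, and in HT 4.91, 5.06, 5.50 and 5.32. Every ST array was above every FC and HT array, the closest being ST of L54 and FC of L56, and FC and HT overlapped. ST exceeded FC by 1.23 (SE 0.39, 2.34-fold, adjusted p = 0.0376), with 1.53 under the slide term (adjusted p = 0.0152), 1.92 within slide 1 and 1.23 within slide 2. This call was lost without ST of L52 (1.03, adjusted p = 0.092), FC of L54 (1.0, adjusted p = 0.10), ST of L56 (0.87, adjusted p = 0.23) or FC of L58 (1.06, adjusted p = 0.10), and when only the compared groups were fitted (1.25, adjusted p = 0.0699). HT against ST was -1.26 (SE 0.35, 2.40-fold, adjusted p = 0.0132), with -1.01 within slide 2 and -1.23 within slide 3, and it was not called with the slide as a fixed term (-1.15, adjusted p = 0.13) or without ST of L56 (-0.90, adjusted p = 0.11). HT against FC was -0.04 (95% interval -0.72 to 0.65). The striatum markers given above were highest in ST, where Htr1b and Htr1d were highest. In SC HT their summed signal was 20770 in L52, 62066 in L54, 23958.5 in L56 and 32044 in L58. Htr1d in SC HT was also highest in L54, while Htr1b there was highest in L56. The part of striatum markers in the differences was not tested.

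Htr1a, the inhibitory receptor of pyramidal cells and of the serotonin neurons themselves, lies at chr13:106237236-106237295. In SC mice L52 to L58 it was 6.80, 5.69, 6.39 and 6.41 in FC, 5.80, 6.07, 4.74 and 4.94 in ST, and 6.05, 5.06, 5.52 and 6.13 in HT. The groups overlapped in each pair of regions, and ST of L56 and L58 was not well above background. ST against FC was -1.07 (95% interval -1.86 to -0.28) and was not called (adjusted p = 0.0633). It was called without FC of L54 (-1.24, adjusted p = 0.049), without ST of L54 (-1.44, adjusted p = 0.0038), without CM ST of O58 (-1.07, adjusted p = 0.036) and with array weights estimated by REML (-1.14, adjusted p = 0.039). HT against FC was -0.69 (adjusted p = 0.0893) and HT against ST 0.37 (adjusted p = 0.501). Htr5a, the other member coupled to inhibitory G proteins, was the dimmest, with 10 of 23 arrays well above background (chr5:28181550-28181609). It was 5.63, 5.24, 5.74 and 5.10 in FC and 4.91, 5.13, 4.15 and 4.59 in ST, where no array measured it above background. FC of L58 was below ST of L54, so the groups overlapped. In FC 2 of 4 arrays measured it, L52 and L56. ST was lower in 4 of 4 mice, and the difference was called (adjusted p = 0.0309). By the plain ratio of the group means FC was 1.66-fold higher, which includes the 2 FC arrays that did not measure Htr5a. A floor at the lowest signal of any probe well above background on each array raised 0 of the 4 ST arrays. With each ST array raised instead to the lowest Htr5a signal well above background on any array, FC was 1.41-fold higher. The size of the difference is therefore uncertain. The fitted difference was -0.89 (SE 0.27), with -0.45 within slide 1 and -0.99 within slide 2. The call was lost under the slide term (-0.81, adjusted p = 0.0744), with the slide as a random block (-0.86, adjusted p = 0.0734) and with only the compared groups (-0.87, adjusted p = 0.0837). Without ST of L52 (-0.77, adjusted p = 0.075), FC of L56 (-0.67, adjusted p = 0.13) or ST of L56 (-0.41, adjusted p = 0.37) it was lost as well. HT, at 4.96, 4.85, 5.10 and 4.85, differed from neither by the test, with -0.46 against FC (adjusted p = 0.11) and 0.43 against ST (adjusted p = 0.24). The first was called without FC of L58 (-0.65, adjusted p = 0.034). The second was called without ST of L54 (0.71, adjusted p = 0.016) and on the processed signal (1.21, adjusted p = 0.0465).

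Htr2a, the Gq-coupled receptor of cortical pyramidal cells (chr14:75106454-75106513), had the clearest order of regions. In SC mice it was 10.74, 10.61, 10.70 and 10.60 in FC, 9.16, 10.23, 8.84 and 9.08 in ST, and 7.72, 7.61, 7.98 and 8.02 in HT. FC was highest and HT lowest in each of the 4 mice, and no arrays of different regions overlapped. ST of L54 was high within its group, and the same array had the highest cortex signal of the SC ST arrays. ST of L58 had the next highest cortex signal, 7773, and its Htr2a was 9.08, below that of L52. The part of cortex signal in these values was not tested. Compared with FC, HT was lower, at -2.81 (SE 0.26, 7.0-fold, adjusted p = 1.29e-07), with -2.74 under the slide term and -2.72 between the pair of arrays on slide 2. ST lay between them. It was -1.40 from FC (SE 0.31, 2.64-fold, adjusted p = 0.00553), with -1.42 under the slide term, -1.47 within slide 1 and -1.20 within slide 2. HT against ST was -1.41 (SE 0.28, 2.65-fold, adjusted p = 0.000899), with -1.32 under the slide term, -1.52 within slide 2 and -1.31 within slide 3. The call between ST and FC was lost without ST of L56, where the difference was -0.71 (adjusted p = 0.18).

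Htr2c, the other Gq-coupled member, is read by 3 probes of 1 transcript. The sequence of the faintest, at chrX:143629079-143629138 on the plus strand (mm9), is shown because it covers the end of the coding sequence. Its capitals mark the last 3 codons and the stop codon, which encode the tail that binds PDZ proteins such as Mpdz.
Htr2c probe A_55_P2158921: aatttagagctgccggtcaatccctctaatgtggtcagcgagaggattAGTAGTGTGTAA
The averaged Htr2c value in SC mice was 6.95, 7.22, 6.99 and 7.88 in FC, 8.31, 7.11, 7.78 and 7.65 in ST, and 8.49, 8.45, 8.33 and 8.20 in HT. HT was high and narrow and lay above all FC arrays, while ST overlapped with both. HT exceeded FC by 1.08 (SE 0.21, 2.11-fold, adjusted p = 0.000446, 4 of 4 mice), with 1.5 under the slide term (adjusted p = 0.00997) and 1.25 between the slide 2 arrays. Of the 8 choroid plexus rows, 2 were also higher in HT than in FC (1 with the slide as a fixed term). By group means these rows did not move evenly. Otx2 was 6.10 in SC FC and 9.76 in SC HT, and Prlr was 5.71 and 8.86. The other rows rose less, except Kcnj13, which was lower in HT (8.14 and 7.73). The part of choroid plexus in the Htr2c difference was not tested. HT against ST was 0.70 (SE 0.23, 1.62-fold, adjusted p = 0.0318), with 0.75 within slide 2 and 0.78 within slide 3. That call was lost under the slide term (0.68, adjusted p = 0.16) with the slide as a random block (0.65, adjusted p = 0.0546) and with an offset of 50 added after background correction (0.57, under 1.5-fold). It was also lost without ST of L54 (0.55, under 1.5-fold), HT of L54 (0.68, adjusted p = 0.066), HT of L56 (0.74, adjusted p = 0.055) or ST of L58 (0.67, adjusted p = 0.057). ST against FC, 0.38 (95% interval -0.14 to 0.90), was not called (adjusted p = 0.338), but was called under the slide term (0.82, adjusted p = 0.0378), with 0.95 within slide 1 and 0.50 within slide 2.

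The 3 Htr2c probes differed in size of response. Between HT and FC of SC mice, A_55_P1977503 (chrX:143631655-143631714) gave 1.69 (adjusted p = 0.000168) and A_55_P2068461 (chrX:143604149-143604208) gave 1.04 (adjusted p = 0.000788). The probe printed above gave 0.51 (adjusted p = 0.036), which is under 1.5-fold, and it was well above background on 16 of 23 arrays, with 1 of 4 in SC FC and 0 of 3 in CM FC. Between HT and ST only A_55_P1977503 was called, at 1.14 (adjusted p = 0.0147). All 3 had HT above FC.

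Htr3a encodes a subunit of the serotonin-gated channel, carried in cortex by a class of interneurons (chr9:48707773-48707832). In SC mice it was 7.71, 7.48, 7.30 and 7.58 in FC, 5.92, 6.51, 6.10 and 6.84 in ST, and 5.97, 5.54, 6.37 and 6.38 in HT. FC was above every array of the other regions, and ST and HT overlapped. ST against FC was -1.22 (SE 0.37, 2.32-fold, adjusted p = 0.0336, lower in 4 of 4 mice), with -1.42 under the slide term (adjusted p = 0.0264), -1.54 within slide 1 and -1.40 within slide 2. With the mouse as a fixed replicate block it was -1.08 and not called (adjusted p = 0.0819). The same call was lost without ST of L52 (-1.07, adjusted p = 0.084), FC of L54 (-1.22, adjusted p = 0.059), ST of L56 (-1.0, adjusted p = 0.14) or FC of L58 (-1.13, adjusted p = 0.065). HT against FC was -1.37 (SE 0.32, 2.59-fold, adjusted p = 0.00178), with -1.33 within slide 2, and under the slide term it was -1.79 and missed the threshold (adjusted p = 0.0501). HT against ST was -0.16 (95% interval -0.86 to 0.55). Of 5 markers of interneurons that express Htr3a (most abundant Cnr1), Vip was lower in both ST (-2.45) and HT (-3.34), Reln and Cnr1 were lower in HT (-1.59 and -1.14), Cnr1 was higher in ST (0.99) and Calb2 was higher in HT (2.86). Between HT and ST, 1 of the 5 was higher and 2 were lower. Calb2 is also a gene of the thalamus list above, whose rows were all higher in HT than in FC. The part of such interneurons in the Htr3a differences was not tested.

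Htr4, coupled to Gs, had the widest spread within a group of the 11 rows, an SD of 1.01 in SC FC (n = 4). In SC FC it was 5.10, 5.62, 6.22 and 7.44, with L52 and L54 not well above background, in ST 7.65, 6.19, 7.49 and 7.31, and in HT 6.95, 7.09, 6.88 and 7.35. FC of L58 was as high as ST, and ST of L54 was as low as FC, so that each pair of regions overlapped. None of the differences was called in SC mice, with 0.85 for ST against FC (95% interval -0.05 to 1.76, adjusted p = 0.201), 0.70 for HT against FC (adjusted p = 0.133) and -0.15 for HT against ST (adjusted p = 0.84). ST against FC was called under the slide term (1.59, adjusted p = 0.0186), with 1.22 within slide 1 and 1.75 within slide 2. It was also called without ST of L54 (1.19, adjusted p = 0.025) and without FC of L58 (1.22, adjusted p = 0.042). HT against FC was called without FC of L58 (1.06, adjusted p = 0.016), without array weights (0.97, adjusted p = 0.0452) and without the filter on dim probes (1.12, adjusted p = 0.0124), where the second probe also counts.

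Htr6, coupled to Gs and known for high levels in striatal neurons, has a RefSeq row and an Ensembl row, read by different probes. The probe of the RefSeq row lies at chr4:138617683-138617742 on the minus strand (mm9). It is printed because it reads the coding sequence of the seventh membrane helix. The capitals mark 5 codons of the conserved motif at the inner end of that helix.
Htr6 probe A_51_P183497: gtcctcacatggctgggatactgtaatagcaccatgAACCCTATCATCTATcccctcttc
On this row Htr6 was 6.52, 5.99, 6.54 and 6.21 in SC FC, 6.5, 6.10, 6.63 and 7.37 in ST, and 5.70, 5.62, 5.41 and 5.96 in HT. HT was below every array of the other regions, which overlapped each other. HT against FC was -0.73 (SE 0.18, 1.66-fold, adjusted p = 0.00322), with -1.08 under the slide term (adjusted p = 0.0395) and -0.56 within slide 2. HT against ST was -0.96 (SE 0.19, 1.94-fold, adjusted p = 0.00114), with -1.20 under the slide term (adjusted p = 0.00764), -0.41 within slide 2 and -1.80 within slide 3. ST against FC was 0.23 (95% interval -0.21 to 0.68). The Ensembl row (chr4:138630767-138630826) was called in none of these contrasts. It lay between 5.13 and 5.97 over all 12 SC arrays, with -0.03 for HT against FC (95% interval -0.48 to 0.41) and -0.29 for HT against ST (95% interval -0.77 to 0.18). With an offset of 50 added after background correction, the RefSeq row fell under 1.5-fold in both contrasts, at -0.41 and -0.56.

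Htr7, the third Gs-coupled member and a known receptor of thalamus and hypothalamus (chr19:36033339-36033398), was the receptor most raised in HT. In SC mice it was 9.40, 9.33, 9.62 and 9.62 in FC, 9.82, 8.83, 9.56 and 8.31 in ST (highest in L52 and L56, the SC ST arrays with the most thalamus signal), and 11.48, 11.37, 11.41 and 11.43 in HT. All 4 HT arrays lay close together above the rest, and FC and ST overlapped. HT exceeded FC by 1.89 (SE 0.23, 3.71-fold, adjusted p = 3.08e-06), with 2.65 under the slide term and 2.03 within slide 2. HT exceeded ST by 2.14 (SE 0.25, 4.40-fold, adjusted p = 2.77e-06), with 2.62 under the slide term, 2.23 within slide 2 and 3.11 within slide 3. ST against FC was -0.25 (95% interval -0.81 to 0.31). No left-out array and no alternative ended either call. In SC HT of L58 the thalamus signal was the lowest of the 4, with Htr7 at 11.43. In SC HT of L54 the hypothalamus signal was the lowest, and so was Htr7, at 11.37. Among CM HT arrays, O58 had the lowest hypothalamus signal (44546) and the lowest Htr7 (11.13). O52 had the highest thalamus signal there (121540) and the highest Htr7 (11.55). The part of either tissue in the Htr7 difference was not tested.

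**Figure D2:**
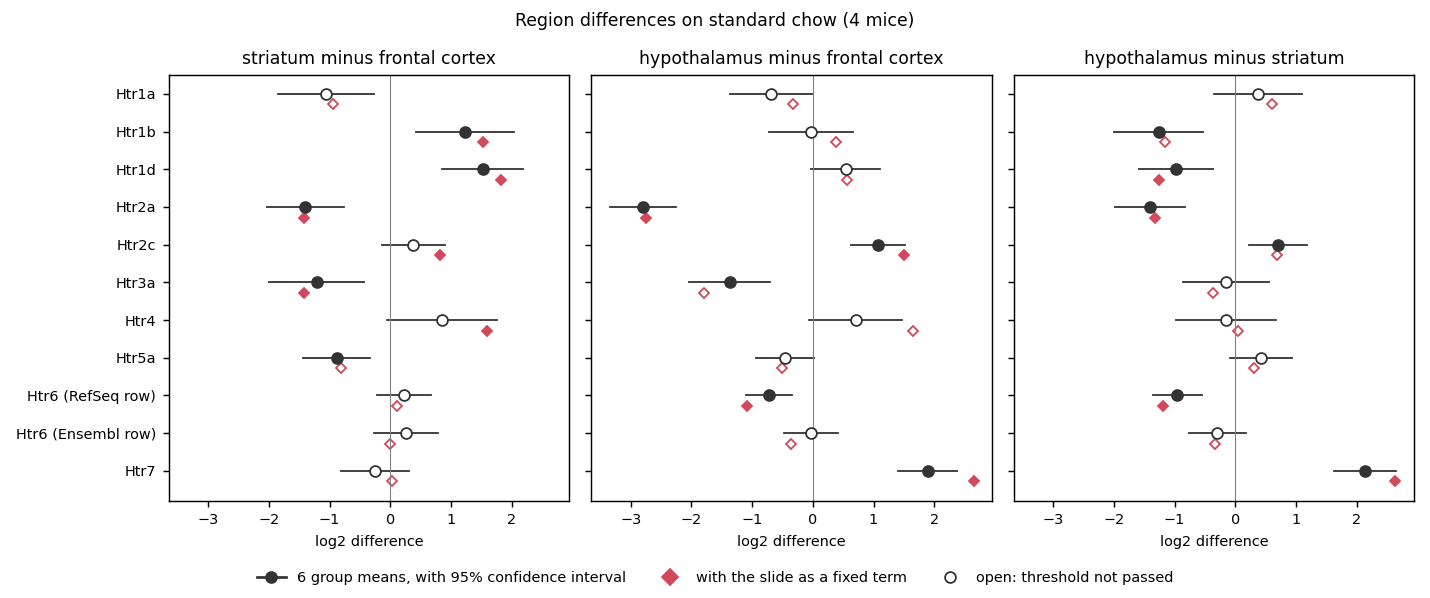
Fitted log2 difference of each receptor row for the 3 pairs of regions in SC mice, with 95% confidence intervals, beside the estimate with the slide as a fixed term. In SC mice, Htr7 lies at 1.89 and 2.14 in the contrasts with HT, and Htr2a lies at -2.81 between HT and FC.

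In CM mice each region lay on a slide of its own, and only the SC arrays tie the slides together, so that the values with the slide term carry wide errors. Between ST and FC, 8 of 11 rows were called, beside 26.2% of all rows. They were Htr4 (2.45), Htr1b (2.16), Htr1d (1.63) and Htr2c (1.47), higher in ST, and Htr2a (-1.29), Htr1a (-1.02), Htr3a (-0.95) and Htr5a (-0.69), lower. Of the 8 choroid plexus rows, 7 were also higher in ST than in FC of CM mice (0 with the slide as a fixed term), and CM ST of O58, which had the most of that signal, had the highest Htr2c of the CM ST arrays, 8.60 against 8.00, 7.97 and 8.10 in O52, O54 and O56. The part of that tissue in the Htr2c values was not tested. No CM ST array measured Htr5a above background. By the plain ratio of the group means FC was 1.55-fold higher, and with the floor taken from Htr5a itself 1.39-fold, so this size is uncertain too. The call of Htr5a was lost without CM FC of O56 (-0.51, under 1.5-fold). With the slide as a fixed term limma called 0 of these 11 rows, beside 3.08% of all rows, and 8 had an unadjusted p under 0.05, beside 5636 of all 31395 rows. These 8 were Htr1a, Htr1b, Htr1d, Htr2a, Htr2c, Htr4, Htr7 and the RefSeq row of Htr6. The genes called without the slide term then had differences of 1.52 for Htr4, 1.60 for Htr1b, 1.74 for Htr1d, 1.07 for Htr2c, -1.38 for Htr2a, -1.55 for Htr1a, -0.48 for Htr3a and -0.71 for Htr5a. Between HT and FC, 7 of 11 rows were called, beside 22.2% of all rows. Htr7 (2.18), Htr4 (1.99), Htr2c (1.75) and Htr2a (-3.0) were called with the slide term too, beside 13.1% of all rows. Htr3a (-1.20), Htr1a (-0.74) and the RefSeq row of Htr6 (-0.64) were not, at -1.09, -1.32 and -0.43 with adjusted p of 0.201, 0.106 and 0.423. The call of Htr1a there was also lost without array weights (-0.73, adjusted p = 0.107). With an offset of 50, Htr1a (-0.42) and the RefSeq row of Htr6 (-0.36) between HT and FC and Htr1a between ST and FC (-0.52) fell under 1.5-fold. Between HT and ST, 5 rows were called, beside 22.7% of all rows, and all 5 were called with the slide term, which added Htr2c (0.82) and called 13.7% of all rows. The 5 were Htr7 (2.56), Htr1b (-2.44), Htr2a (-1.71), Htr1d (-1.64) and the RefSeq row of Htr6 (-1.22). In CM HT 2 of 4 arrays measured Htr1b and 3 of 4 Htr1d, so the sizes of these 2 are uncertain. Single arrays added calls in CM mice. Between ST and FC, the RefSeq row of Htr6 was called without CM ST of O52 (0.64), CM FC of O54 (0.62) or CM ST of O58 (0.61), with the mouse as a fixed replicate block (0.60, adjusted p = 0.0025) and with the slide as a random block (0.67, adjusted p = 0.0049). Between HT and FC, Htr1b was called without CM FC of O56 (-0.62) and Htr5a without CM HT of O56 (-0.66) and on the mean spot signal (-0.66). On the processed signal 10 rows were called there, with Htr1b (-0.69), Htr5a (-1.24) and the Ensembl row of Htr6 (-0.84) added. The share of all rows called on that signal is not given, and its scaling moved their median from -0.0048 to -0.079. Htr4 was called between HT and ST without CM HT of O56 (-0.69).

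For diet, the study's own thresholds were applied. FC and ST rows had to reach 2-fold at an adjusted p under 0.01, and HT rows 1.5-fold at an adjusted p under 0.05. No receptor passed in limma's fit, with 0 of 11 rows for FC, beside 2.94% of all rows, 0 for ST, beside 0.602%, and 0 for HT, beside 0.178%. An unadjusted p under 0.05 was reached by 2 receptors of FC, by 2 of ST and by 0 of HT, beside 40.0%, 25.5% and 13.2% of all rows. Under the slide term these counts were 0, 1 and 0, beside 7.07%, 4.48% and 2.69%, and no row of the whole table passed the study's thresholds. The smallest adjusted p of any receptor was 0.0182 in FC and 0.157 in ST. In HT it was 0.482. At an adjusted p under 0.05 with no fold, Htr2c and Htr4 were lower in CM FC, where 13.2% of all rows were lower and 8978 of the 31395 passed in either direction, a larger share than 2 of 11, and 0 receptors changed in ST and HT, where 9.82% and 0.430% of all rows did. For the receptors the median absolute log2 difference was 0.18 in FC against 0.23 over all rows. It was 0.30 against 0.18 for ST and 0.054 against 0.10 for HT. In HT the 95% interval of every receptor lay between -0.95 and 0.80. Htr7 in HT had an interval of -0.38 to 0.35.

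Htr2c in CM FC was 6.6, 6.46 and 6.99 in O54, O56 and O58, and the SC values given above ran from 6.95 to 7.88. The groups overlapped by the array of O58. The difference was -0.64 (SE 0.19, adjusted p = 0.0182), and with the slide as a fixed term it was -0.25 (adjusted p = 0.964). Htr4 in CM FC was 4.72, 5.45 and 5.50, against 5.10 to 7.44 in SC FC, and the groups overlapped. Its difference was -1.07 (SE 0.34, adjusted p = 0.0222), with -0.14 under the slide term (adjusted p = 0.993). No slide held FC arrays of both diets, so that no within-slide value exists and diet and slide cannot be told apart in FC by direct comparison. In ST the lowest unadjusted p were those of Htr1b, 0.75 (95% interval 0.06 to 1.44, adjusted p = 0.157), and Htr2c, 0.46 (95% interval 0.01 to 0.90, adjusted p = 0.183), where CM ST of O58 was the highest array, as said above. Slide 1 held the 4 CM ST arrays and ST of SC mouse L52, against which Htr1b was 0.18, Htr2c -0.14, Htr4 0.05, Htr1a -0.51, the Ensembl row of Htr6 0.62 and Htr7 -1.03. That array is the one with the high hypothalamus signal, and Htr2c and Htr7 were highest in HT. The part of that tissue in these values was not tested. Slide 2 held the 4 CM HT arrays and HT of SC mouse L58, against which Htr2c was 0.21, Htr4 -0.20, Htr7 -0.04, Htr1a -0.45 and Htr1b -0.52. By probe, Htr2c in FC was -0.85 (adjusted p = 0.0245) and -0.28 (adjusted p = 0.311) for A_55_P1977503 and A_55_P2068461, and -0.75 (adjusted p = 0.00314) for the probe at the coding end, which no CM FC array measured above background. In SC FC 1 of 4 arrays measured that probe, so its value is uncertain, and it is averaged into the Htr2c row.

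**Figure D3:**
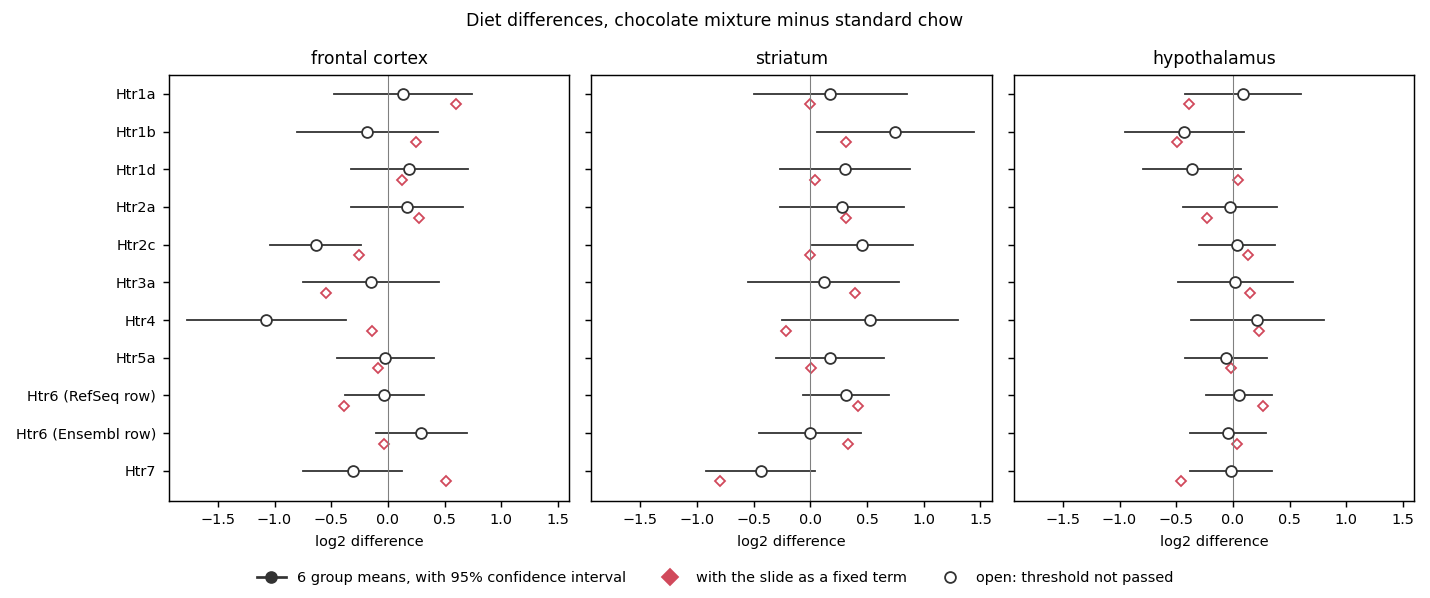
Fitted log2 difference of CM minus SC for each receptor row in each region, with 95% confidence intervals (circles) and the estimate with the slide as a fixed term (diamonds), open where the study's threshold was not passed. All symbols are open, and the FC values of Htr2c and Htr4, -0.64 and -1.07, lie at -0.25 and -0.14 with the slide term.

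Whether diet acted differently in the regions was tested as the difference of the CM minus SC effects. Of 11 rows, 2 were called between ST and FC at an adjusted p under 0.05, Htr2c and Htr4, both with a higher diet effect in ST, where 14.2% of all rows were higher. For HT and FC, 1 was called, Htr4, higher in HT, where 7.66% of all rows were higher. In either direction 9454 and 6267 of the 31395 rows were called, larger shares than 2 and 1 of 11, so that these counts do not set the receptors apart. Between HT and ST it was 0, beside 0% of all rows. For HT against ST, limma gave 1 receptor an unadjusted p under 0.05, beside 14.8% of all rows, and 0 with the slide as a fixed term, beside 1.85%. Htr2c gave 1.1 between ST and FC (SE 0.29, adjusted p = 0.0082), against 0.25 with the slide as a fixed term, 0.83 with the slide as a random block (adjusted p = 0.194) and 0.89 on the processed signal (adjusted p = 0.0662). By probe, limma gave 1.51 for A_55_P1977503 (adjusted p = 0.0096) and 0.66 for A_55_P2068461, not called (adjusted p = 0.104). The dim probe at the coding end gave 1.12 (adjusted p = 0.0033). Htr4 gave 1.60 between ST and FC (SE 0.51, adjusted p = 0.0228) and 1.29 between HT and FC (SE 0.45, adjusted p = 0.0473), against -0.070 and 0.38 with the slide as a fixed term. On the processed signal both calls of Htr4 were lost (1.54, adjusted p = 0.0688, and 1.12, adjusted p = 0.16). Both were also lost with the slide as a random block (1.17 and 1.19), without array weights (1.40 and 0.95), without the filter on dim probes (0.73 and 0.46) and with only the compared groups (1.59 and 1.29). The same signal called Htr1d between HT and FC (-1.53, adjusted p = 0.0168) and the Ensembl row of Htr6 between ST and FC (-1.26, adjusted p = 0.0106) and between HT and FC (-1.17, adjusted p = 0.0107), all lower. The Htr4 value between HT and FC missed the threshold without each of 11 arrays in turn. These were SC FC of L58 (0.93, adjusted p = 0.113), SC HT of L54 (1.25, 0.0939) and L56 (1.22, 0.116), and SC ST of L58 (1.28, 0.0599). CM FC of O54 (1.04, 0.105), CM HT of O54 (1.12, 0.104) and O56 (1.06, 0.109) were others, with CM ST of O52 (1.29, 0.053), O54 (1.28, 0.0546), O56 (1.28, 0.0546) and O58 (1.29, 0.0563). For Htr2c the value between HT and FC, 0.67 (adjusted p = 0.0695), was called without SC FC of L52 (0.75), SC FC of L56 (0.95) or CM FC of O58 (0.80), with the mouse as a fixed replicate block (0.70, adjusted p = 0.0399) and with only the compared groups (0.68, adjusted p = 0.04997). Htr1b was called between ST and FC without SC ST of L56 (1.29, adjusted p = 0.0467), with an offset of 50 (0.60, adjusted p = 0.0253) and with the mouse block (1.19, adjusted p = 0.0119), and between HT and ST with the mouse block (-1.30, adjusted p = 0.0495). Htr1d was called between HT and FC without SC FC of L58 (-0.87, adjusted p = 0.0415).

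The striatum markers of the FC arrays were set beside Htr2c and Htr4. The summed striatum signal, given above, was low in SC L52, CM O54 and CM O56. Htr2c there was 6.95, 6.6 and 6.46, the lowest of the 7 FC arrays. Htr4 in the same 3 arrays was 5.10, 4.72 and 5.45, which are the lowest of the 7 values. The next values were close to these, with Htr2c at 6.99 in SC L56 and CM O58 and Htr4 at 5.50 in CM O58. In both of those arrays the striatum signal was high, and in SC L56 it was the highest. The part of striatal tissue in the diet values of Htr2c and Htr4 was not tested.

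**Figure D4:**
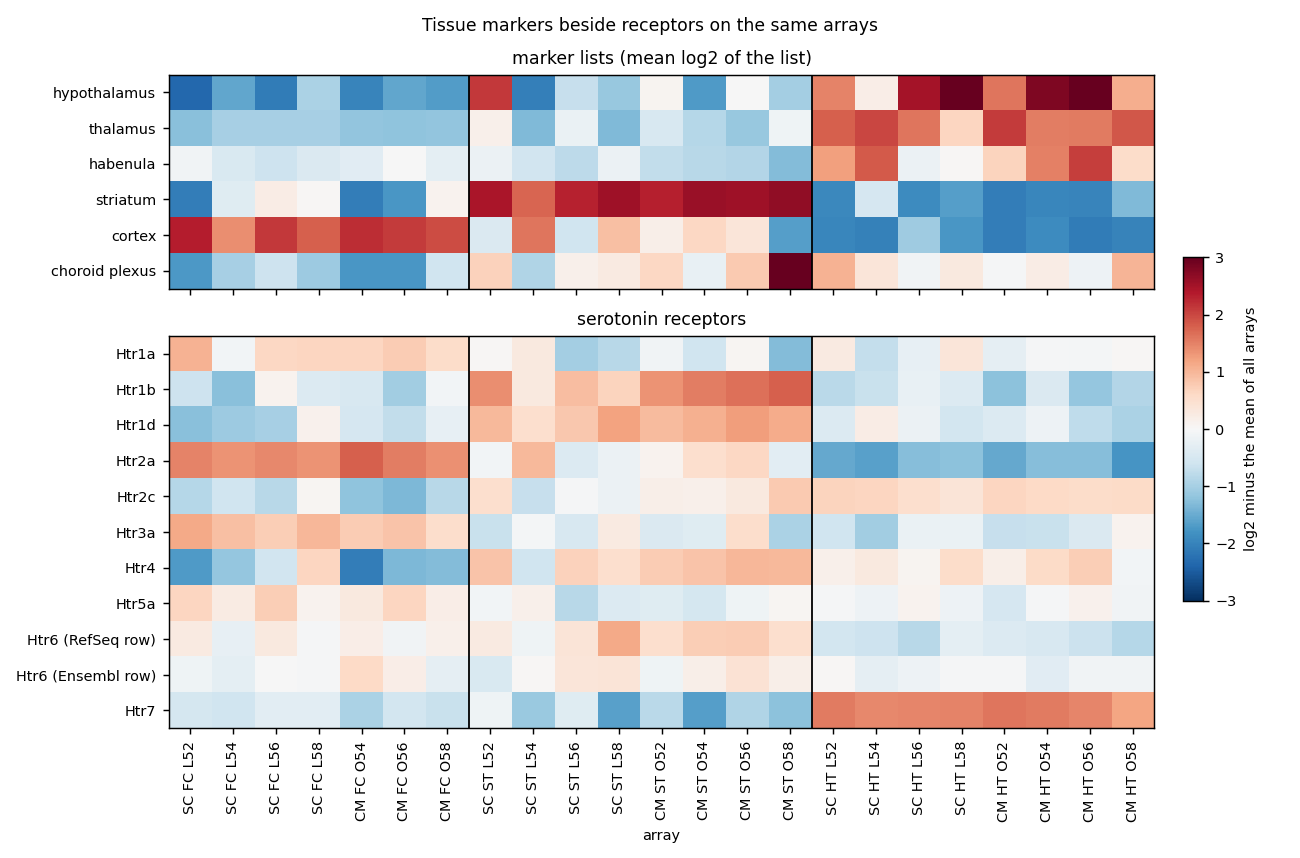
Mean log2 intensity of the marker lists and the values of the receptors on every array, in order of region, diet and mouse, each shown as the deviation from its mean over the 23 arrays. Striatum markers are low in FC of SC L52, CM O54 and CM O56, and SC ST of L52 and CM ST of O58 stand out in the hypothalamus and choroid plexus lists.

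The genes that make and clear serotonin had 12 rows from 11 genes. Between ST and FC of SC mice limma called 0 of them (1 at an unadjusted p under 0.05, beside 9097 of all 31395 rows, and 1 with the slide as a fixed term, beside 7208), between HT and FC 8 were higher in HT and between HT and ST 6, where the shares of all rows that were higher are those given for the receptors. With the slide as a fixed term 5 were called between HT and FC, and 7 between HT and ST, 1 of them lower. Slc18a2, the vesicular monoamine transporter, was 2.64 higher in HT than in FC (adjusted p = 0.000525) and 2.72 higher than in ST (adjusted p = 0.00145). Ddc, which carries out the last step of synthesis, was 2.98 and 2.34 higher on 1 of its rows and 2.36 higher than in ST on the other. These enzymes also serve dopamine neurons and other monoamine cells. Of the diet contrasts, 1 row passed, Fev, a transcription factor of serotonin neurons, at 1.26 in FC (adjusted p = 0.000253) and -0.15 with the slide as a fixed term. In FC 2.94% of all rows passed, and with the slide as a fixed term no row did. In SC FC 2 of 4 arrays measured Fev. Of the raphe serotonin neuron list, Tph2 and Fev had rows, and Fev was also higher in HT than in FC of SC mice (1.28), which was lost with the slide as a fixed term (-0.02), while the transporter Slc6a4 had none.

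The transducers had 30 rows from 22 genes, and their counts between regions of SC mice stand against 5.15% of all rows higher and 4.18% lower between ST and FC, 12.7% and 10.3% between HT and FC, and 5.50% and 6.35% between HT and ST. Between ST and FC, 2 were higher in ST, the striatal cyclase Adcy5 (1.74, adjusted p = 0.00305) and its G protein Gnal (1.40, adjusted p = 0.000877), and 6 were lower, among them the potassium channel Kcnj3 (-1.22) and the cyclase Adcy2 (-1.16). Between HT and FC, 7 were higher, among them the channel Kcnj5 (3.26, adjusted p = 3.07e-07) and a row of Gnas (3.02, adjusted p = 4.74e-05), and 9 lower. In SC FC 2 of 4 arrays measured Kcnj5 and 1 of 4 that row of Gnas, so the sizes of these differences are uncertain. Between HT and ST, 9 were higher and 6 lower, with Adcy5 at -2.47 (adjusted p = 7.87e-06). Receptor partners and editing enzymes had 10 rows from 9 genes, with the same shares of all rows. Of these, 2 were lower in ST than in FC, 1 was higher and 3 lower in HT than in FC, and 2 were higher and 1 lower in HT than in ST. In both lists limma called 0 rows for diet at the study's thresholds. An unadjusted p under 0.05 was reached by 10 transducers and 2 partners in FC, 5 and 3 in ST, and 2 and 0 in HT, where the shares of all rows were those given for the receptors. At an adjusted p under 0.05 with no fold, 4 transducers and 1 partner passed in FC, 1 of each in ST and 0 in HT, beside 8978, 3082 and 135 of all rows.

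Across the 23 arrays, which share regions and slides, each receptor was set against the other named genes of these lists, as a description. Htr1b and Htr1d ran most closely with Adcy5 (Pearson r = 0.92 and 0.88) and Gnal (0.90 and 0.91), and with each other at 0.87. Htr2a was most like Htr1f (0.96) and Adcy9 (0.90). For Htr7 it was a row of Gnas (0.96) and a row of Plcb4 (0.96), and for Htr2c it was Kcnj5 (0.87) and Htr4 (0.83). Htr4 was in turn most like Htr2c and then Adcy3 (0.66). Htr3a followed Adcy2 (0.89) and Kcnj6 (0.82), as did Htr1a (0.78 and 0.78) and Htr5a (0.72 and 0.73). The RefSeq row of Htr6 was most like Gnao1 (0.88) and Plcb1 (0.81), and its Ensembl row like Gnao1 (0.42) and Dlg4 (0.39). After each group's mean was removed, r was highest for Htr1a with Adcy2 (0.75) and Htr2c with Htr4 (0.69). It was 0.65 and 0.62 for Htr7 with Plcb4 and Gnas, 0.62 for Htr2c with Kcnj5, 0.59 for Htr2a with Htr1f, 0.55 for Htr1d with Gnal and 0.42 for Htr1b with Adcy5. The least was kept by the RefSeq row of Htr6 with Plcb1 (-0.22), its Ensembl row with Gnao1 (0.11) and Dlg4 (0.13), Htr4 with Adcy3 (0.19), Htr5a with Kcnj6 (0.22) and Htr2a with Adcy9 (0.26). Among the receptors themselves the lowest r over the 23 arrays was -0.86 between Htr2a and Htr2c, and it was -0.61 for that pair after the group means were removed.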

How the data were processed

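One-colour Agilent 8x60K mouse arrays were used, 1 per mouse and region. Per the file headers, Feature Extraction gave the median intensity of each spot. The authors background-corrected it with normexp (offset 0) and quantile-normalized it. They dropped probes whose log2 value did not exceed 1.1 times the log2 value of the negative controls (95th percentile of 308 spots) on at least 4 arrays. The remaining probes were averaged by identifier into the deposited log2 table. These steps were repeated from the scanner files with limma 3.58.1 in R 4.3.3, and the result differed from the deposited table by at most 5e-09. The fit held 6 group means, the mouse as a random block (correlation -0.04), gene-by-gene array weights (0.22 to 2.74) and empirical Bayes moderation, with Benjamini-Hochberg adjustment over all 31395 rows. Its code was tested on simulated data. No fold change or p-value printed here comes from the authors' own tables, which were at hand when the weight estimator was chosen, as said below.

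The gene-by-gene weight estimator was adopted in an earlier analysis of these data. There it and the default, REML, had both been run and set beside the authors' tables, so it was chosen with results known. The 10 receptors, the marker lists and the pathway lists were likewise chosen with earlier results of these data known. Named genes were all receptor rows, up to 4 called pathway rows with the largest change per region contrast in SC mice, every pathway row called for diet, and the 2 genes most like each receptor. Marker lists covered hypothalamus, thalamus, habenula, striatum, cortex, hippocampus, choroid plexus, interneurons expressing Htr3a and raphe serotonin neurons.

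The same label number in different regions is the same mouse. Deviations from the group means correlated between regions of a mouse at -0.49 to 0.13 over 22 pairs, with a median of 0.02, and at a median of -0.02 between different mice. Symbols of 10 of the 11 receptor rows were matched to RefSeq, and all 10 were the file's own name. Probe positions are those of the scanner files (mm9). Alternatives covered background offset, signal, scaling, filter, weights, blocks, slide, thresholds and leaving out each array. The share of all rows beside the diet-by-region contrasts was first counted in either direction and was narrowed to the direction of the called receptors after those results were known; the counts in either direction are given as well.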

Additional observations from a re-analysis of the deposited data

Results flagged for a closer look

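A pair of receptors had diet differences that were not the same in different regions, by the interaction test of limma's fit. As shares of the 11 rows, 2 between ST and FC and 1 between HT and FC are below the shares of all rows called in either direction, 9454 and 6267 of 31395. For Htr2c the CM minus SC difference was 1.1 higher in ST than in FC. For Htr4 it was 1.60 higher in ST than in FC and 1.29 higher in HT than in FC. With the slide as a fixed term the values were 0.25, -0.070 and 0.38, and none was called, so diet by region and slide cannot be told apart here. For the 11 receptor rows in the 5 groups of 4 arrays, 55 sets in all, no array stood far from the others of its set, where chance would single out about 1 in 20. CM FC, with 3 arrays, was not examined in this way, nor were the marker lists.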

How the results depend on the processing

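Called receptor rows in SC mice ran over the single left-out arrays from 1 (without SC ST of L56) to 7 (without SC ST of L54) between ST and FC, where the count was 5, and 2 without SC ST of L52. They ran from 5 to 8 between HT and FC (8 without SC FC of L58) and from 4 to 6 between HT and ST. In CM mice they ran from 7 to 9, from 7 to 8 and from 5 to 6, for diet from 0 to 0 in each region, and for diet by region from 2 to 3. Between ST and FC of SC mice, 3 rows were called when only the compared groups were fitted and 2 at 2-fold with an adjusted p under 0.01, a threshold at which 2 were called between HT and ST. With the slide as a fixed term, 0 were called between ST and FC and 4 between HT and FC in CM mice. For diet by region, called rows numbered 0 with the slide as a fixed term, 0 with it as a random block, and 1 without array weights, without the filter, with only the compared groups or at the stricter threshold. In FC, 2 passed for diet at an adjusted p under 0.05 with no fold. The Htr4 diet effect of ST against FC reversed to -0.070 with the slide as a fixed term. No share of all rows is given for the left-out arrays, compared groups, stricter threshold, random block, weights or filter. The counts under those settings thus do not set the receptors apart. The cause of the shifts was not tested.

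A pair of alternatives was chosen after seeing the data, and no share of all rows is given for either. Leaving out SC FC of L58 and SC ST of L54 together gave 8 called rows between ST and FC and 8 between HT and FC, but those arrays were picked for their receptor values, so this count supports nothing. Leaving out SC ST of L52 and CM ST of O58, picked for their hypothalamus and choroid plexus markers, gave 2 between ST and FC, where Htr1b (1.03, adjusted p = 0.109), Htr3a (-1.06, adjusted p = 0.0679) and Htr5a (-0.77, adjusted p = 0.0801) were lost. It also ended the calls of Htr1b (-1.06) and Htr1d (-0.92) between HT and ST and added Htr1a between HT and FC (-0.69, adjusted p = 0.0479), the RefSeq row of Htr6 between ST and FC of CM mice (0.61, adjusted p = 0.0014) and Htr2c for diet between HT and FC (0.68, adjusted p = 0.0377).

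REML weights changed 1 receptor call, Htr1a. The deposited table, the fit without a mouse block and the filter on the scanner's own flag changed none. In the contrasts between regions and of diet by region, the mouse as a fixed replicate block changed calls of Htr3a, Htr1b, Htr2c and Htr6 only. The diet contrasts within a region were not fitted with that block. With the label number alone as a block, Htr2c was added for diet between HT and FC (0.66, adjusted p = 0.0421). Scaling the processed signal to its 75th percentile moved the median of all rows between HT and FC of SC mice to 0.12. With an offset of 50 Htr5a did not pass the filter, and 1 value per probe gives no single Htr2c value. Signal over background limits Htr5a in most groups, Htr1b, Htr1d and Htr4 in SC FC, Htr1a in ST, Htr1b and Htr1d in CM HT, and 1 Htr2c probe in FC.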

Other observations

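Of 4 further receptor genes of the family, Htr1f, Htr2b and Htr5b had rows, and Htr3b did not pass the filter. Htr1f, an inhibitory receptor, ran from FC to HT like Htr2a, at -1.80 between HT and FC (adjusted p = 2.15e-06) and -1.07 between HT and ST (adjusted p = 0.00158) in SC mice, both also called with the slide as a fixed term. Htr2b was called in none of the contrasts. Htr5b had the widest spread of any receptor row in HT, with 7.12, 8.29, 4.73 and 6.06 in SC mice L52, L54, L56 and L58 and 6.30, 7.50, 8.08 and 6.71 in CM mice O52, O54, O56 and O58. It was called between HT and FC in CM mice (1.32, adjusted p = 0.015) but not with the slide as a fixed term (1.91, adjusted p = 0.294). Of the 5 habenula markers (most abundant Tac2), 2 were higher in HT than in FC and 1 higher than in ST in SC mice. Their summed signal in SC HT was 6454, 7183, 5286 and 5927 in that order of mice, and in CM HT 4682, 8143, 10363 and 4741. HT of L54 among SC mice and HT of O56 among CM mice were thus highest in both Htr5b and the habenula markers, which was not tested. Of the choroid plexus list, 2 of 8 were higher in HT than in FC of SC mice and 1 higher than in ST. In CM mice 7 were higher in ST than in FC, 3 higher in HT than in FC, and 2 higher and 4 lower in HT than in ST; with the slide as a fixed term 0, 1 and 1 were called, all higher. Of the 3 hippocampus markers with rows (most abundant Zbtb20), 1 was lower in ST than in FC, 1 was higher and 1 lower in HT than in FC, and 1 was higher in HT than in ST.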
